A study of Ambystoma mexicanum with 44 samples.

Results

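The comparison described here set the epidermis of the innervated axolotl limb stump at day 3 after amputation against the same tissue at day 1. It rested on the 4 arrays of the innervated limb at day 3 and the 4 of the innervated limb at day 1, which are 8 of the 44 arrays of the study, and it covered all 20035 probe sets that are not array controls. The study asked how gene expression changes while an amputated limb regenerates, while a limb deprived of its nerves does not, and while a simple skin wound heals. Forelimbs of aquatic axolotls (Ambystoma mexicanum) were cut just above the elbow and the humerus was shortened to the level of the cut. The day 3 and day 1 limbs kept their brachial nerves. The other groups used below were the denervated limb at days 3 and 1, in which the brachial nerves had been transected, wounds of the flank made with a biopsy punch at days 3 and 1, and the innervated limb at days 7 and 0, where day 0 is labelled as time 0. Each group held 4 biological replicates. Each replicate was the RNA of 1 animal from which 2 harvested pieces had been pooled, and the pieces were epidermis together with whatever cells adhered to it. The labels gave no age, sex, strain, scan date or batch.

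After amputation, keratinocytes at the cut edge migrate over the stump within about a day and form a thin covering called the wound epidermis. They divide little while they migrate. In the following days the covering thickens into a layer that lies directly on the stump tissue, remodels the provisional matrix of the wound, and signals to the underlying cells from which the blastema arises. Day 1 samples this tissue around wound closure, and day 3 samples the young wound epidermis.

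Values are the log2 levels deposited by the authors, so a difference of 1 is a 2-fold difference. Differences are day 3 minus day 1, given with their standard error (SE) from limma, and p-values were adjusted by the Benjamini-Hochberg method over the 20035 probe sets. Rose and fell are used of probe sets with an adjusted p under 0.05. A gene was read from its brightest probe set, which gave 8639 genes. Correlations between arrays were 0.991 to 0.993 among the day 3 arrays and 0.976 to 0.990 among the day 1 arrays, against 0.963 to 0.982 between the days. Of 10 keratinocyte markers 8 were measured (TP63, DSP, PKP1, COL17A1, CDH1, PERP, GRHL2 and EPCAM), and over the 8 arrays their levels ran from 4.28 to 13.7. No probe set was named for keratins 5 and 14 in the platform annotation. The day 1 arrays were less alike than the day 3 arrays in the transcripts of other tissues. The mean of 33 skeletal muscle genes, relative to its mean over the 44 arrays, was −1.30 to −0.80 on the day 3 arrays, and on day 1 replicates 1 to 4 it was 0.45, −0.05, 3.16 and 3.49. List counts of 3 or more are therefore also given without day 1 replicates 3 and 4 where that moved them by over 1.5 times. Smaller counts moved by at most 2 members.

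From day 1 to day 3, 3157 probe sets rose (15.8% of those tested) and 2113 fell (10.5%), together 26.3%. A difference of at least 2-fold was found in 495 of those that rose and in 482 of those that fell. Counted by gene, 1614 rose (18.7%) and 964 fell (11.2%), the median difference over all genes was 0, and 2113 genes (24.5%) were called with no overlap between the 4 day 3 values and the 4 day 1 values. These shares are the background for the lists of genes below. The lists were chosen with earlier results of these data known, so setting them against the background is a description only. Without day 1 replicates 3 and 4, 1259 genes rose and 772 fell. Members of the mitosis, DNA replication, proteasome and lysosome lists were mostly higher where they were called, and members of the endoplasmic reticulum chaperone, ribosome biogenesis, cholesterol, glycolysis and growth factor lists were mostly lower where they were called.

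**Figure D1:**
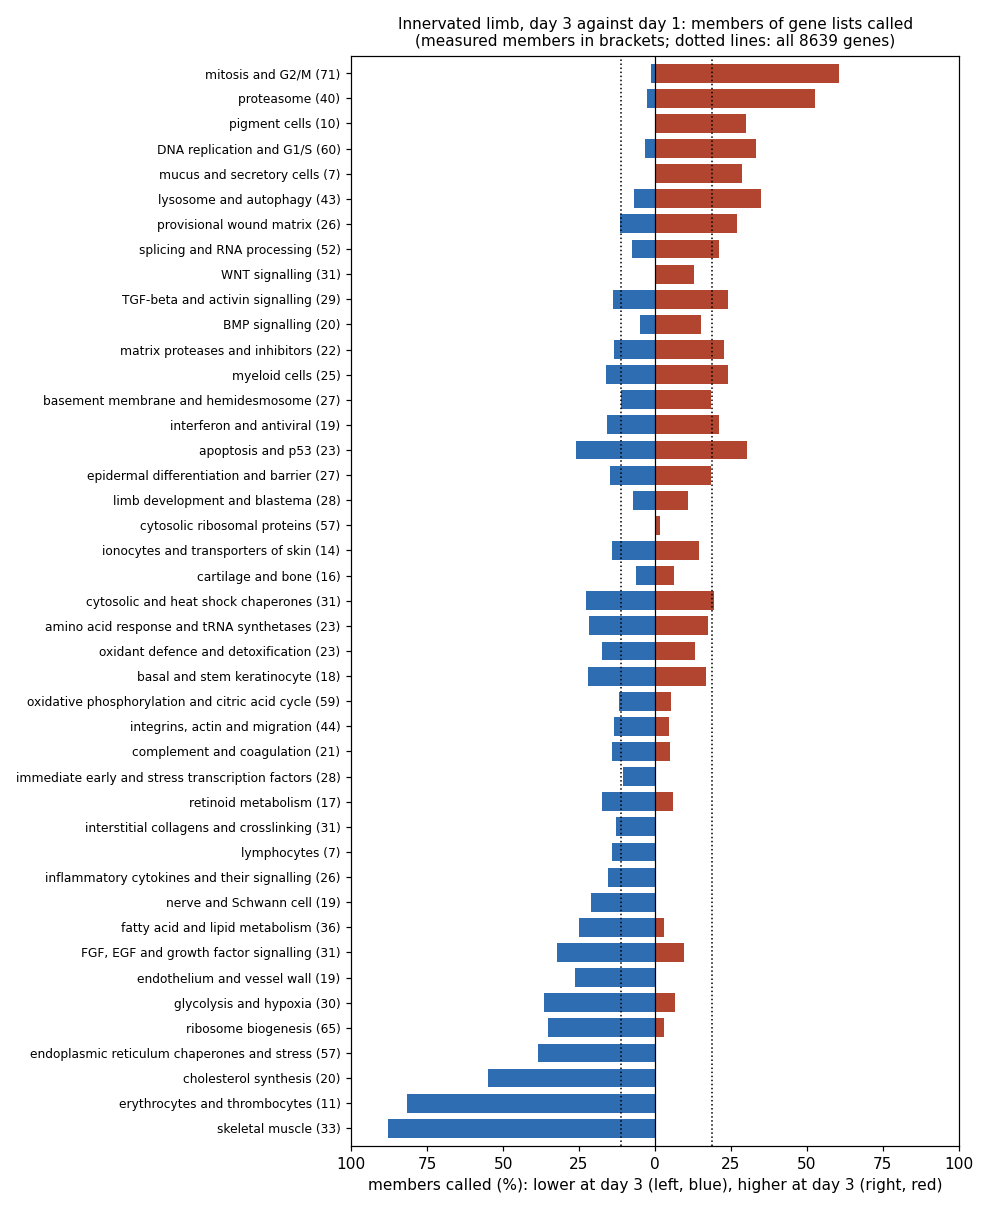
Share of the measured members of each gene list that were higher (red, to the right) or lower (blue, to the left) at day 3 than at day 1, at an adjusted p under 0.05. The dotted lines mark the shares over all 8639 genes, 18.7% higher and 11.2% lower, and the number of measured members is in brackets. The mitosis and proteasome lists lie farthest to the right and the skeletal muscle and erythrocyte lists farthest to the left.

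Transcripts of dividing cells were higher at day 3. Of 71 measured genes of mitosis and the G2/M phase 43 rose and 1 fell, and their median difference was 0.825, against 0 over all genes. Without day 1 replicates 3 and 4, 22 rose and none fell, and the median was 0.770. STMN1, which destabilises microtubules and is abundant in proliferating cells, stood at 12.93, 12.94, 12.81 and 12.71 at day 3, against 11.40, 11.61, 11.41 and 11.62 at day 1. The 4 day 3 values lay above every day 1 value, and the difference was 1.34 ± 0.14 (adjusted p = 3.39e-09). CEP55, needed for the final separation of daughter cells, stood at 8.61, 8.67, 8.58 and 8.70 at day 3, against 7.32, 7.27, 7.03 and 7.38 at day 1 (difference 1.39 ± 0.17, adjusted p = 9.46e-08). ASPM, which organises the poles of the spindle, stood at 7.65, 7.68, 6.69 and 7.59 at day 3, against 5.43, 5.35, 5.08 and 5.75 at day 1 (difference 2.0 ± 0.30, adjusted p = 3.34e-06). Day 3 replicate 3 was the lowest of its day for ASPM and still lay above the day 1 values. HMMR, a spindle-associated hyaluronan receptor, rose by 1.16 ± 0.17. Condensin compacts chromosomes for division, and 2 of its subunits were among the 15 genes with the largest rises. NCAPD3 stood at 8.66, 8.53, 8.20 and 8.55 at day 3, against 6.80, 6.43, 5.59 and 6.27 at day 1 (4.63-fold, adjusted p = 6.42e-06), and SMC2 was 4.26-fold higher (adjusted p = 4.41e-05).

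Genes of DNA replication moved in the same direction but fewer of them were called. Of 60 measured, 20 rose and 2 fell, with a median difference of 0.301. POLD2, a subunit of DNA polymerase delta, stood at 8.66, 8.68, 8.58 and 8.62 at day 3, against 7.54, 7.83, 7.64 and 7.77 at day 1 (difference 0.94 ± 0.079, adjusted p = 2.52e-11). RFC1 and RFC4 belong to the clamp loader of the replication fork. RFC1 rose by 1.34 ± 0.15 and RFC4 by 0.85 ± 0.10. CDC7, the kinase that fires replication origins, stood at 7.85, 7.86, 7.98 and 7.68 at day 3, against 6.43, 6.84, 5.86 and 6.61 at day 1 (difference 1.41 ± 0.16, adjusted p = 1.80e-08). HELQ, a helicase of DNA repair, rose 4.44-fold and BRWD3, a chromatin-associated bromodomain protein, rose 5.90-fold, both among the 15 largest rises. For each of these genes the day 3 values lay wholly above the day 1 values.

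Secreted matrix proteins gave the largest rises of named genes, although the lists they belong to moved both ways. KAZALD1, a secreted protein related to the insulin-like growth factor binding proteins, stood at 11.41, 11.83, 11.80 and 11.12 at day 3, against 5.36, 7.58, 8.16 and 6.97 at day 1. The day 1 values were spread over almost 3 units and all lay below the day 3 values, and the difference was 4.52 ± 0.37, a 23.0-fold rise (adjusted p = 1.03e-11). PAMR1, a secreted protein with a serine-protease-like domain, stood at 8.64, 9.62, 9.34 and 9.28 at day 3, against 5.62, 5.64, 5.39 and 5.64 at day 1 (12.5-fold, adjusted p = 1.59e-12). Fibronectin (FN1), the adhesive glycoprotein over which keratinocytes crawl, stood at 11.03, 11.08, 11.60 and 11.13 at day 3, against 8.09, 8.53, 8.74 and 8.10 at day 1 (7.18-fold, adjusted p = 2.07e-08). HAPLN3, which links hyaluronan to proteoglycans, rose 4.88-fold, and TGFBI, an adhesion protein induced by TGF-beta, rose by 1.93 ± 0.18. SDC4, a syndecan that acts as a co-receptor for fibronectin at focal adhesions, fell. It stood at 8.59, 9.33, 9.10 and 9.40 at day 3, against 11.12, 10.08, 10.44 and 10.65 at day 1 (difference −1.47 ± 0.21, adjusted p = 7.71e-07). Of the 26 measured genes of the provisional wound matrix 7 rose and 3 fell, with a median of −0.12. That median was 0.168 without day 1 replicates 3 and 4.

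Basement membrane genes were called about as often as all genes, with 5 up and 3 down of 27 (median −0.0675). LAMA1, the alpha chain of the laminin of early basement membranes, stood at 7.64, 7.43, 7.81 and 7.60 at day 3, against 4.40, 5.56, 5.71 and 5.04 at day 1 (5.44-fold, adjusted p = 5.43e-09). COL7A1, the collagen of anchoring fibrils, stood at 12.18, 11.84, 12.41 and 12.02 at day 3, against 10.93, 10.83, 10.72 and 10.63 at day 1 (difference 1.33 ± 0.22, adjusted p = 1.59e-05). PXDN, a peroxidase that crosslinks collagen IV, rose by 1.16 ± 0.23. ITGA6, the alpha chain of the hemidesmosomal integrin that binds laminin, stood at 7.99, 8.10, 7.92 and 8.21 at day 3, against 9.54, 9.36, 9.66 and 9.56 at day 1 (difference −1.48 ± 0.26, adjusted p = 4.38e-05). Without day 1 replicate 1, 7 members of the list fell. Interstitial collagens and their crosslinking enzymes had no member up and 4 down of 31 (median −0.207). Decorin (DCN), a small proteoglycan of collagen fibrils, fell by 0.84 ± 0.16, and P4HA1, a prolyl hydroxylase of collagen chains, fell by 0.87 ± 0.22. Day 1 replicate 1 was the highest array for P4HA1, at 11.51, against 10.50 to 10.63 on the other day 1 arrays.

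Matrix proteases and their inhibitors also split by member. TIMP1, the tissue inhibitor of metalloproteinases, stood at 10.19, 10.98, 10.04 and 10.92 at day 3, against 13.65, 13.07, 12.64 and 12.84 at day 1. All day 3 values lay below the day 1 values, and TIMP1 was 5.73-fold lower at day 3 (difference −2.52 ± 0.42, adjusted p = 1.51e-05). MMP19, a metalloproteinase of epidermis, fell by 1.5 ± 0.20. The membrane-bound collagenase MMP14 stood at 6.86, 6.62, 6.83 and 6.51 at day 3, against 5.19, 5.58, 6.13 and 5.84 at day 1 (difference 1.02 ± 0.18, adjusted p = 5.03e-05), and the lysosomal protease cathepsin B (CTSB) rose by 0.65 ± 0.09. Of 22 measured, 5 rose and 3 fell (median −0.05). Among 44 genes of integrins, actin and migration 2 rose and 6 fell (median −0.0663). ITGB5, the beta chain of a vitronectin receptor, rose by 1.30 ± 0.10. Focal adhesion kinase (PTK2) fell by 0.51 ± 0.11 and the actin-binding protein profilin (PFN1) fell by 0.30 ± 0.05.

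In the BMP, TGF-beta and WNT signalling lists 15%, 24.1% and 12.9% of members rose, against 18.7% over all genes. Members that fell were 5%, 13.8% and 0%, against 11.2% over all genes. BMP2, a bone morphogenetic protein, stood at 7.57, 7.33, 7.01 and 7.14 at day 3, against 8.33, 8.45, 8.61 and 8.13 at day 1 (difference −1.12 ± 0.15, adjusted p = 4.00e-07). SMAD1, which carries the BMP signal to the nucleus, rose by 0.63 ± 0.11, and ID3, a transcriptional inhibitor induced by BMP in other vertebrates, rose by 0.70 ± 0.16. BMP signalling as a list had 3 members up and 1 down of 20 (median −0.0612). In TGF-beta and activin signalling 7 of 29 rose and 4 fell (median −0.0575). SKIL, which represses SMAD-dependent transcription, stood at 8.30, 8.50, 8.24 and 8.55 at day 3, against 10.41, 9.77, 9.65 and 9.57 at day 1 (difference −1.45 ± 0.14, adjusted p = 8.23e-10). SMAD4, the SMAD shared by both pathways, rose by 0.84 ± 0.09, and LTBP3, which holds latent TGF-beta in the matrix, rose by 1.39 ± 0.24. WNT signalling had 4 of 31 up and none down (median −0.0025), with the transcription factor TCF7L1 up by 0.69 ± 0.16 and LGR4, a receptor for R-spondins, up by 0.60 ± 0.14.

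Of 31 measured genes of FGF, EGF and other growth factor signalling 10 fell and 3 rose (median −0.147). HBEGF, a ligand of the EGF receptor, stood at 7.00, 7.07, 6.88 and 6.86 at day 3, against 7.79, 8.21, 8.89 and 9.12 at day 1 (difference −1.55 ± 0.26, adjusted p = 1.79e-05). The ligand amphiregulin (AREG) stood at 9.12, 9.46, 8.74 and 8.28 at day 3, against 10.92, 11.18, 11.03 and 9.88 at day 1 (3.61-fold lower, adjusted p = 0.000659), and the receptor EGFR fell by 0.70 ± 0.13. ETV4, a transcription factor induced by FGF in the limb bud, rose. It stood at 7.18, 6.37, 6.42 and 6.11 at day 3, against 5.23, 5.23, 5.23 and 5.47 at day 1 (difference 1.23 ± 0.18, adjusted p = 2.27e-06). Of 28 limb development and blastema genes 3 rose and 2 fell (median −0.0288). SALL4, a transcription factor of stem and limb bud cells, stood at 10.50, 10.31, 10.48 and 10.34 at day 3, against 8.81, 9.36, 8.61 and 9.02 at day 1 (2.75-fold, adjusted p = 2.37e-08). MYCN, a proto-oncogene of progenitor cells, rose by 0.86 ± 0.24, which was 0.75 without day 1 replicates 3 and 4 and then missed the threshold (adjusted p = 0.0574). Retinoid metabolism had 1 of 17 up and 3 down (median −0.045), with 1 down without day 1 replicates 3 and 4, and DHRS3, which reduces retinal to retinol, rose by 0.90 ± 0.16.

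Several other genes among the 15 largest rises act at the cell surface or in stress responses. KIT, a receptor tyrosine kinase of pigment and blood cell precursors, stood at 10.86, 10.11, 10.74 and 10.12 at day 3, against 7.77, 8.52, 8.21 and 8.38 at day 1 (4.72-fold, adjusted p = 2.94e-08). NOX4, an oxidase that makes hydrogen peroxide, stood at 7.83, 7.68, 7.29 and 7.19 at day 3, against 4.87, 5.44, 5.16 and 5.24 at day 1 (4.99-fold, adjusted p = 6.64e-10). NUPR1, a stress-induced chromatin protein, rose 4.63-fold. ROBO1, a receptor for SLIT guidance proteins, rose 4.49-fold, with day 1 replicate 1 at 5.96 and the other day 1 arrays between 7.39 and 7.78. SLC13A4, a sulphate transporter, rose 4.46-fold. SIGLEC1, a receptor of macrophages, rose 5.45-fold, with day 3 replicate 2 at 8.06 and the other day 3 arrays between 6.99 and 7.15.

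Transcripts of protein folding in the endoplasmic reticulum were lower at day 3. Of 57 measured chaperones and stress genes of that compartment 22 fell and none rose, with a median of −0.198, and 22 fell and none rose without day 1 replicates 3 and 4. CRELD2, a secreted protein of the unfolded protein response, stood at 9.29, 9.46, 9.30 and 9.68 at day 3, against 10.94, 10.99, 10.79 and 10.95 at day 1 (difference −1.48 ± 0.15, adjusted p = 8.23e-10). MANF, a survival factor released on endoplasmic reticulum stress, stood at 11.26, 11.42, 11.19 and 11.40 at day 3, against 12.46, 12.38, 12.44 and 12.38 at day 1 (difference −1.10 ± 0.11, adjusted p = 8.22e-10). The spread among arrays of a day was a fraction of these differences. SDF2L1, a partner of the chaperone BiP, fell by 1.23 ± 0.11, and SEC23B, of the coat that carries proteins out of the compartment, fell by 1.14 ± 0.12. Chaperones of the cytosol and mitochondria split, with 6 up and 7 down of 31 (median 0.0625), and 3 were up without day 3 replicate 3 or without day 1 replicate 1. CRYAB, a small heat shock protein of muscle, lens and epithelia, stood at 8.80, 9.58, 10.01 and 9.40 at day 3, against 12.24, 12.11, 12.61 and 12.96 at day 1 (8.18-fold lower, adjusted p = 2.50e-07). HSP90AA1, the inducible HSP90, fell by 1.35 ± 0.20, and HSPD1, the mitochondrial chaperonin, fell by 0.68 ± 0.15.

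Ribosome biogenesis genes mostly fell where they were called, like the endoplasmic reticulum chaperones, while the ribosomal proteins did not. Of 65 measured genes that process ribosomal RNA and assemble ribosomes 23 fell and 2 rose (median −0.182). WDR43, of the machinery that transcribes and processes ribosomal RNA, stood at 7.71, 7.86, 7.64 and 7.99 at day 3, against 8.82, 9.21, 9.08 and 8.91 at day 1 (difference −1.21 ± 0.11, adjusted p = 1.89e-10). MRTO4, an assembly factor of the large subunit, fell by 0.91 ± 0.10. BYSL and UTP18, which act in making the small subunit, fell by 1.04 ± 0.12 and 0.89 ± 0.10. Of 57 cytosolic ribosomal proteins 1 rose, RPL28 by 0.30 ± 0.08, and none fell, with a median of 0.025. With an intensity trend in the variance 7 of them rose.

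Of 20 measured enzymes and regulators of cholesterol synthesis 11 fell and none rose (median −0.551). SQLE, the epoxidase of the pathway, stood at 7.26, 7.73, 7.77 and 8.01 at day 3, against 9.77, 9.14, 9.68 and 10.90 at day 1 (4.53-fold lower, adjusted p = 0.00130). CYP51A1, which demethylates lanosterol, was 4.84-fold lower and INSIG1, which restrains the pathway's master regulator, was 2.79-fold lower. HMGCS1, an early enzyme of the pathway, stood at 6.39, 5.79, 6.15 and 6.15 at day 3, against 7.56, 6.92, 7.56 and 8.68 at day 1 (difference −1.56 ± 0.42, adjusted p = 0.00420). Day 1 replicate 4 was the highest array for SQLE and HMGCS1. The cholesterol count was 7 without day 3 replicate 2, 5 without day 1 replicate 4, and 4 without day 1 replicates 3 and 4, where HMGCS1 no longer passed (difference −1.12, adjusted p = 0.106). Fatty acid and lipid genes had 9 down and 1 up of 36 (median −0.0912). The fatty acid elongase ELOVL5 fell by 0.81 ± 0.12, and CPT1A, which admits fatty acids to mitochondria, was 3.73-fold lower. DGAT2, which makes triglyceride, was 2.93-fold lower.

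Of 30 genes of glycolysis and the response to low oxygen 11 fell and 2 rose (median −0.16). SLC16A1, a carrier of lactate, stood at 8.61, 8.75, 8.81 and 8.97 at day 3, against 11.32, 10.82, 11.06 and 10.86 at day 1 (4.69-fold lower, adjusted p = 2.01e-08). All day 3 values lay below all day 1 values. PFKP, a phosphofructokinase, fell by 0.90 ± 0.13, and BNIP3, which marks mitochondria for removal, rose by 0.88 ± 0.14. Oxidative phosphorylation and the citric acid cycle had 3 up and 7 down of 59 (median 0.0475), and the number down was 3 without day 3 replicate 3 and 4 without day 1 replicate 3. With day 1 replicates 3 and 4 left out, 5 rose and 4 fell. TFAM, which maintains mitochondrial DNA, rose by 0.62 ± 0.06, and cytochrome c (CYCS) fell by 0.96 ± 0.17. Amino acid response genes and tRNA synthetases had 4 up and 5 down of 23 (median −0.0075), and 3 were down when day 3 replicate 2, day 3 replicate 3 or day 1 replicate 2 was left out. MTHFD2, a mitochondrial enzyme of folate metabolism, stood at 9.81, 10.15, 9.81 and 10.80 at day 3, against 12.25, 12.25, 11.74 and 11.19 at day 1 (3.28-fold lower, adjusted p = 4.35e-07). PHGDH, the entry enzyme of serine synthesis, rose by 0.68 ± 0.12. Oxidant defence genes had 3 up and 4 down of 23 (median −0.145), with 1 up without day 1 replicates 3 and 4, and GSS, which makes glutathione, rose by 0.50 ± 0.11.

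Of 26 inflammatory genes 4 fell and none rose (median −0.055), and 2 fell without day 1 replicates 3 and 4 (median −0.0025). PTGES, which makes prostaglandin E2, stood at 6.19, 7.25, 6.56 and 7.42 at day 3, against 8.72, 8.18, 8.89 and 9.02 at day 1 (3.60-fold lower, adjusted p = 0.000153). Immediate early and stress transcription factors had 3 down and none up of 28 (median −0.221). Without day 1 replicate 4, 5 were down, and without day 1 replicates 3 and 4, 1 was down and 1 up. EGR1, an immediate early transcription factor, stood at 8.07, 8.84, 8.33 and 6.74 at day 3, against 8.43, 9.74, 10.45 and 8.62 at day 1, and did not pass (difference −1.31 ± 0.51, adjusted p = 0.0544). It passed when day 3 replicate 2, day 1 replicate 1 or day 1 replicate 4 was left out (adjusted p = 0.0276 to 0.0369). Interferon and antiviral genes had 4 up and 3 down of 19 (median −0.115). IRF2, a regulator of interferon genes, rose by 1.11 ± 0.14 and IFI30, a thiol reductase of antigen processing, by 0.72 ± 0.12. Complement and coagulation genes had 1 up and 3 down of 21 (median 0), with 1 down without day 1 replicates 3 and 4, and of 7 lymphocyte genes 1 fell (median −0.11). A further 3 genes with large falls were picked after their values were seen. OLFM4, a secreted glycoprotein of neutrophils and of epithelial crypts in mammals, stood at 4.69, 5.68, 4.65 and 5.44 at day 3, against 7.89, 7.95, 8.50 and 8.0 at day 1 (difference −2.97 ± 0.35, adjusted p = 2.56e-08). HS3ST1, which sulphates heparan sulphate, stood at 5.60, 6.97, 6.27 and 6.59 at day 3, against 9.24, 9.17, 9.51 and 9.10 at day 1 (difference −2.90 ± 0.28, adjusted p = 5.88e-10). FGL2, a fibrinogen-like protein of immune cells, stood at 7.95, 8.08, 7.42 and 8.34 at day 3, against 9.94, 10.49, 10.54 and 10.71 at day 1 (difference −2.47 ± 0.28, adjusted p = 1.13e-08).

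Skeletal muscle transcripts made up most of the largest falls and were highest on day 1 replicates 3 and 4. In these bulk samples fewer cells of a type cannot be told apart from less RNA per cell. Of 33 measured muscle genes 29 fell and none rose, with a median of −2.71, and without day 1 replicates 3 and 4 only 1 fell and the median was −1.09. MYL1, a light chain of fast myosin, stood at 7.32, 6.49, 6.40 and 5.42 at day 3, against 10.62, 8.36, 13.53 and 14.22 at day 1 (38.7-fold lower, adjusted p = 0.00302). CKM, the creatine kinase of muscle, stood at 6.96, 6.16, 6.27 and 5.93 at day 3, against 9.37, 8.43, 12.74 and 13.53 at day 1 (25.8-fold lower, adjusted p = 0.00286). The day 1 values of both genes differed among themselves by 5 units or more, and replicates 3 and 4 were the highest. Among genes whose days did not overlap, the 15 largest falls were MYL1, TNNT3, MYL3, TNNI2, CKM, TNNC2, RRAD, TNNC1, SRL, HSPB1, NEB, TNNT1, SLC25A4, MYBPC1 and TNNI1, of which most encode parts of the sarcomere, and they were 11.3-fold to 38.7-fold lower at day 3. SLC25A4, an ADP/ATP carrier abundant in muscle, and HSPB1, a small heat shock protein, had day 1 values of 11.07 and 11.55, and of 11.47 and 11.69, on replicates 3 and 4, and of 7.41 or less on replicates 1 and 2. None of the 15 passed without day 1 replicates 3 and 4, with adjusted p from 0.127 for RRAD to 0.465 for SLC25A4. Their differences were then still negative, from −1.105 for SLC25A4 to −3.08 for MYL1. With 2 day 1 arrays left, missing the threshold does not show that these genes did not fall. TNNT1 also missed the threshold without day 1 replicate 3 alone (adjusted p = 0.0527). With 1 of these arrays left out, 18 (without replicate 3) and 17 (without replicate 4) of the muscle genes fell. The member of the muscle list that still fell without both arrays was desmin (DES), an intermediate filament. DES stood at 9.94, 10.18, 9.42 and 8.51 at day 3, against 12.25, 11.59, 12.03 and 11.73 at day 1 (difference −2.39 ± 0.35, adjusted p = 2.27e-06). Its levels did not follow those of CKM over the day 1 arrays. At day 7 DES averaged 10.2 and CKM 4.81.

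Myelin genes were also highest on day 1 replicates 3 and 4, but unlike the muscle genes MBP was high on replicate 2 too. MBP, a structural protein of myelin, stood at 5.13, 6.59, 4.22 and 5.33 at day 3, against 5.26, 9.70, 11.90 and 12.52 at day 1 (difference −4.53 ± 1.00, adjusted p = 0.000665), so the ranges of the days overlapped. Without day 1 replicates 3 and 4 the difference was −2.16 and did not pass (adjusted p = 0.147). PMP22, a myelin membrane protein, stood at 4.38, 4.49, 4.08 and 4.10 at day 3, against 4.42, 5.31, 7.60 and 7.53 at day 1. With only the arrays of the groups compared, MBP and PMP22 lost their calls (limma adjusted p = 0.0515 and 0.0707). Nerve and Schwann cell genes had 4 down and none up of 19 (median −0.158), and 1 down without day 1 replicates 3 and 4. Endothelium and vessel wall genes had 5 down and none up of 19 (median −0.21), 3 without day 3 replicate 3, 2 without day 1 replicate 3, 3 without day 1 replicate 4 and 3 without both. MYH11, the myosin of smooth muscle, was high on all day 1 arrays. It stood at 5.70, 6.53, 5.40 and 5.54 at day 3, against 9.11, 8.0, 8.29 and 8.14 at day 1 (6.03-fold lower, adjusted p = 0.000132). Cartilage and bone genes had 1 up and 1 down of 16 (median 0.03), and ACP5, an acid phosphatase of osteoclasts and macrophages, rose by 1.04 ± 0.23.

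Erythrocyte transcripts were also higher at day 1, on a different set of arrays. Of 11 measured genes of erythrocytes and thrombocytes 9 fell and none rose (median −0.745), and 9 fell without day 1 replicates 3 and 4. The mean of these genes relative to the 44 arrays was −0.53 to 0.03 on the day 3 arrays, and 1.14, 1.00, 0.75 and 0.16 on day 1 replicates 1 to 4. ALAS2, the first enzyme of heme synthesis in red cells, stood at 7.63, 8.87, 7.70 and 9.41 at day 3, against 11.50, 11.27, 10.60 and 9.52 at day 1 (4.99-fold lower, adjusted p = 8.66e-05). RHAG, an ammonia channel of the red cell membrane, stood at 6.07, 7.32, 6.21 and 7.27 at day 3, against 9.82, 9.54, 9.02 and 7.97 at day 1 (5.17-fold lower, adjusted p = 5.22e-06). Day 1 replicate 4 was the lowest day 1 array for both genes. SPTB, the beta spectrin of the red cell skeleton, fell by 1.75 ± 0.28. PRDX2, a peroxidase abundant in red cells, stood at 6.88, 8.27, 7.23 and 9.26 at day 3, against 11.23, 11.08, 10.79 and 9.96 at day 1 (7.24-fold lower, adjusted p = 1.58e-05).

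Myeloid genes moved in both directions. Of 25 measured 6 rose and 4 fell (median 0.17). Without day 1 replicates 3 and 4, 9 rose and 2 fell, and the median was 0.393. NCF1, a subunit of the phagocyte oxidase, stood at 5.84, 6.14, 6.11 and 6.99 at day 3, against 7.58, 7.83, 8.73 and 8.69 at day 1 (3.83-fold lower, adjusted p = 4.42e-07). GPNMB, a glycoprotein of macrophages and pigment cells, stood at 12.78, 12.07, 12.86 and 12.79 at day 3, against 10.75, 10.53, 11.47 and 10.74 at day 1 (3.37-fold, adjusted p = 6.23e-07). Legumain (LGMN), a lysosomal protease of macrophages, rose by 0.60 ± 0.11 and progranulin (GRN), a secreted growth factor of macrophages, by 0.64 ± 0.13. Of 10 pigment cell genes 3 rose and none fell (median 0.0025), among them KIT and GPNMB.

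**Figure D2:**
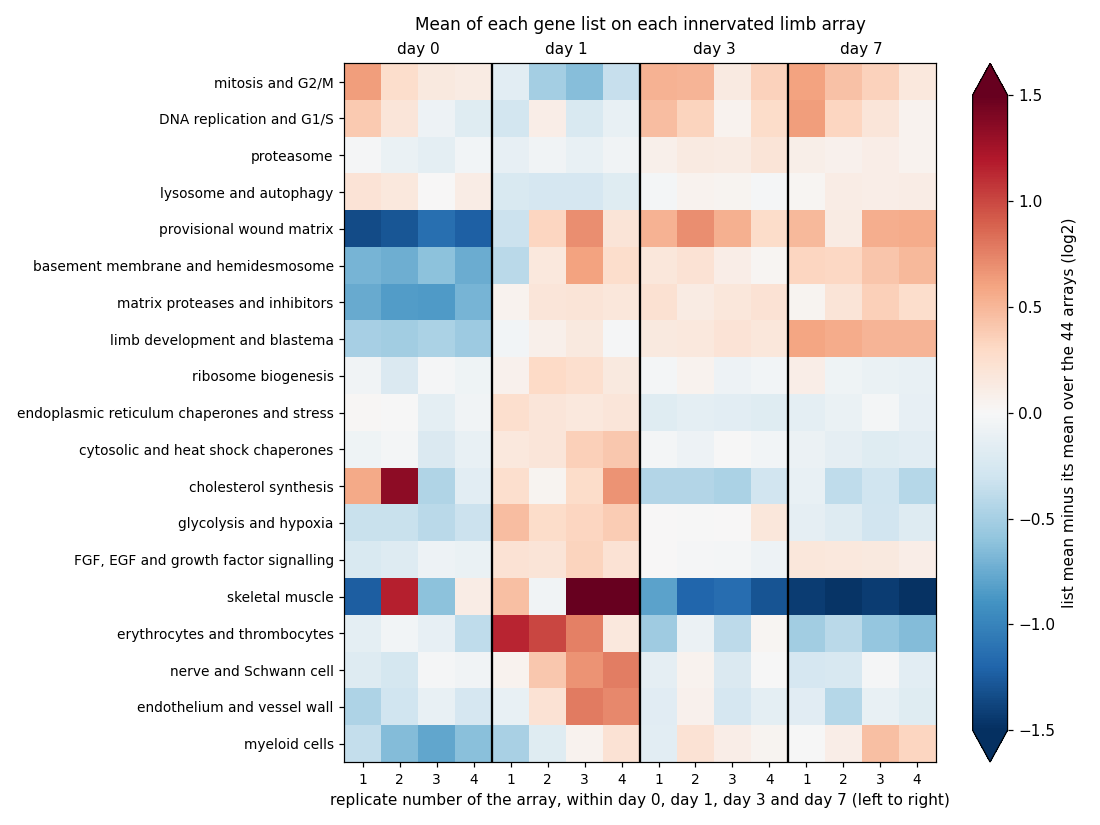
Mean of 19 gene lists on each of the 16 innervated limb arrays (columns, by day and replicate), as the log2 distance from the mean of the list over all 44 arrays. The mitosis list is lowest at day 1, the endoplasmic reticulum chaperones are highest at day 1, and the skeletal muscle list exceeds the colour scale on day 1 replicates 3 and 4, at 3.16 and 3.49.

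Of 27 genes of epidermal differentiation and barrier 5 rose and 4 fell (median 0.117), 8 rose without day 1 replicate 1, and 3 rose without day 1 replicates 3 and 4. OVOL2, a transcription factor that keeps epithelial cells epithelial, stood at 8.13, 8.0, 7.82 and 8.03 at day 3, against 6.03, 6.32, 6.62 and 6.77 at day 1 (2.95-fold, adjusted p = 3.65e-09). GRHL2, a regulator of epithelial junctions, stood at 5.91, 5.68, 6.13 and 5.54 at day 3, against 4.60, 4.88, 4.28 and 4.88 at day 1 (2.23-fold, adjusted p = 3.80e-05). The tight junction scaffold TJP1 stood at 10.70, 10.45, 10.37 and 10.83 at day 3, against 11.60, 11.52, 11.41 and 11.32 at day 1 (difference −0.88 ± 0.09, adjusted p = 2.93e-09), and periplakin (PPL), a desmosomal protein, fell by 1.21 ± 0.17. Basal and stem keratinocyte genes had 3 up and 4 down of 18 (median −0.151). TP63, the master regulator of basal keratinocytes, stood at 8.07, 7.67, 7.83 and 7.62 at day 3, against 7.30, 7.12, 6.46 and 6.91 at day 1 (difference 0.85 ± 0.18, adjusted p = 0.000372). KLF5, a transcription factor of proliferating epithelium, fell by 0.67 ± 0.16.

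Of the 25 genes in the keratin list only 2 had a probe set named for them, and 9084 probe sets were unnamed. The brightest probe set of KRT8, a keratin of simple epithelia, rose by 0.28 ± 0.08 (adjusted p = 0.00594), but it missed the threshold without day 3 replicate 1 (adjusted p = 0.0511) and without day 1 replicates 3 and 4 (adjusted p = 0.151). Another probe set of KRT8 fell by 2.96, so its direction is not settled. KRT18, its partner, stood at 11.26, 11.31, 10.82 and 11.09 at day 3, against 10.69, 10.95, 10.57 and 10.99 at day 1 and did not pass (difference 0.32 ± 0.15, adjusted p = 0.106); without day 3 replicate 3 it did (adjusted p = 0.0453). Mucus and secretory genes had 2 up and none down of 7 (median 0.0625), with GALNT3, which starts O-linked glycans, up by 0.79 ± 0.16. Ionocyte and skin transport genes had 2 up and 2 down of 14 (median −0.0788). The sodium-potassium-chloride carrier SLC12A2 stood at 9.55, 9.53, 9.57 and 9.94 at day 3, against 10.78, 10.90, 10.43 and 10.76 at day 1 (difference −1.07 ± 0.21, adjusted p = 0.000160), and the water channel AQP3 fell by 0.51 ± 0.13.

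Of 40 measured proteasome genes 21 rose and 1 fell (median 0.236). Most rises were small, as 1 of the 21 reached 2-fold, and 18 members were not called. PSMA5, a subunit of the core particle, stood at 11.84, 11.98, 11.85 and 12.01 at day 3, against 11.37, 11.64, 11.60 and 11.61 at day 1 (difference 0.36 ± 0.06, adjusted p = 2.11e-05). PSMB7 of the core and PSMD14 of the cap rose by 0.30 ± 0.05 and 0.52 ± 0.09, and PSME4, an activator of the proteasome, by 1.40 ± 0.18. Of 43 lysosome and autophagy genes 15 rose and 3 fell (median 0.158). Cathepsin O (CTSO), a cysteine protease, stood at 8.22, 8.11, 8.35 and 8.15 at day 3, against 6.31, 6.61, 6.70 and 6.61 at day 1 (3.14-fold, adjusted p = 3.53e-11). BECN1, which starts the autophagosome, stood at 8.04, 8.02, 8.23 and 7.77 at day 3, against 6.86, 6.25, 6.26 and 6.40 at day 1 (2.97-fold, adjusted p = 2.37e-08). GABARAPL2, an autophagosome protein, rose by 0.96 ± 0.11, and the lysosomal galactosidase GLB1 by 0.81 ± 0.10. Apoptosis and p53 genes had 7 up and 6 down of 23 (median 0.207). TP53INP1, a p53-induced regulator of autophagy and cell death, rose by 1.5 ± 0.19 and caspase 2 (CASP2) by 0.93 ± 0.14. Splicing genes had 11 up and 4 down of 52 (median 0.095), with 2 down without day 1 replicates 3 and 4, and the splicing factors LSM8 and PRPF3 rose by 0.66 ± 0.08 and 0.50 ± 0.07.

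The limb at days 0 and 7 places these changes in a longer course. The comparison of day 7 with day 0 used no array of days 3 and 1, and 12.8% of all probe sets were higher and 13.8% lower in it (26.6% in all). Of the probe sets that rose between day 1 and day 3, 858 (27.2%) were higher and 470 (14.9%) lower at day 7 than at day 0. Of those that fell, 326 (15.4%) were higher and 453 (21.4%) lower. For several genes described above the day 1 mean stood apart from the means of the other days. STMN1 averaged 12.2, 11.5, 12.8 and 12.9 at days 0, 1, 3 and 7, and CTSO averaged 8.21, 6.56, 8.21 and 8.09. CRELD2 averaged 8.77, 10.9, 9.43 and 9.37, and OLFM4 averaged 3.84, 8.09, 5.12 and 4.05. Other genes had a course in one direction. KAZALD1 averaged 4.37, 7.02, 11.5 and 12.3 at days 0, 1, 3 and 7, FN1 averaged 6.12, 8.37, 11.2 and 12.3, and SALL4 averaged 3.88, 8.95, 10.4 and 10.5. TIMP1 averaged 6.20, 13.1, 10.5 and 10.7, so that the day 3 mean, though lower than at day 1, was above the day 0 mean.

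**Figure D3:**
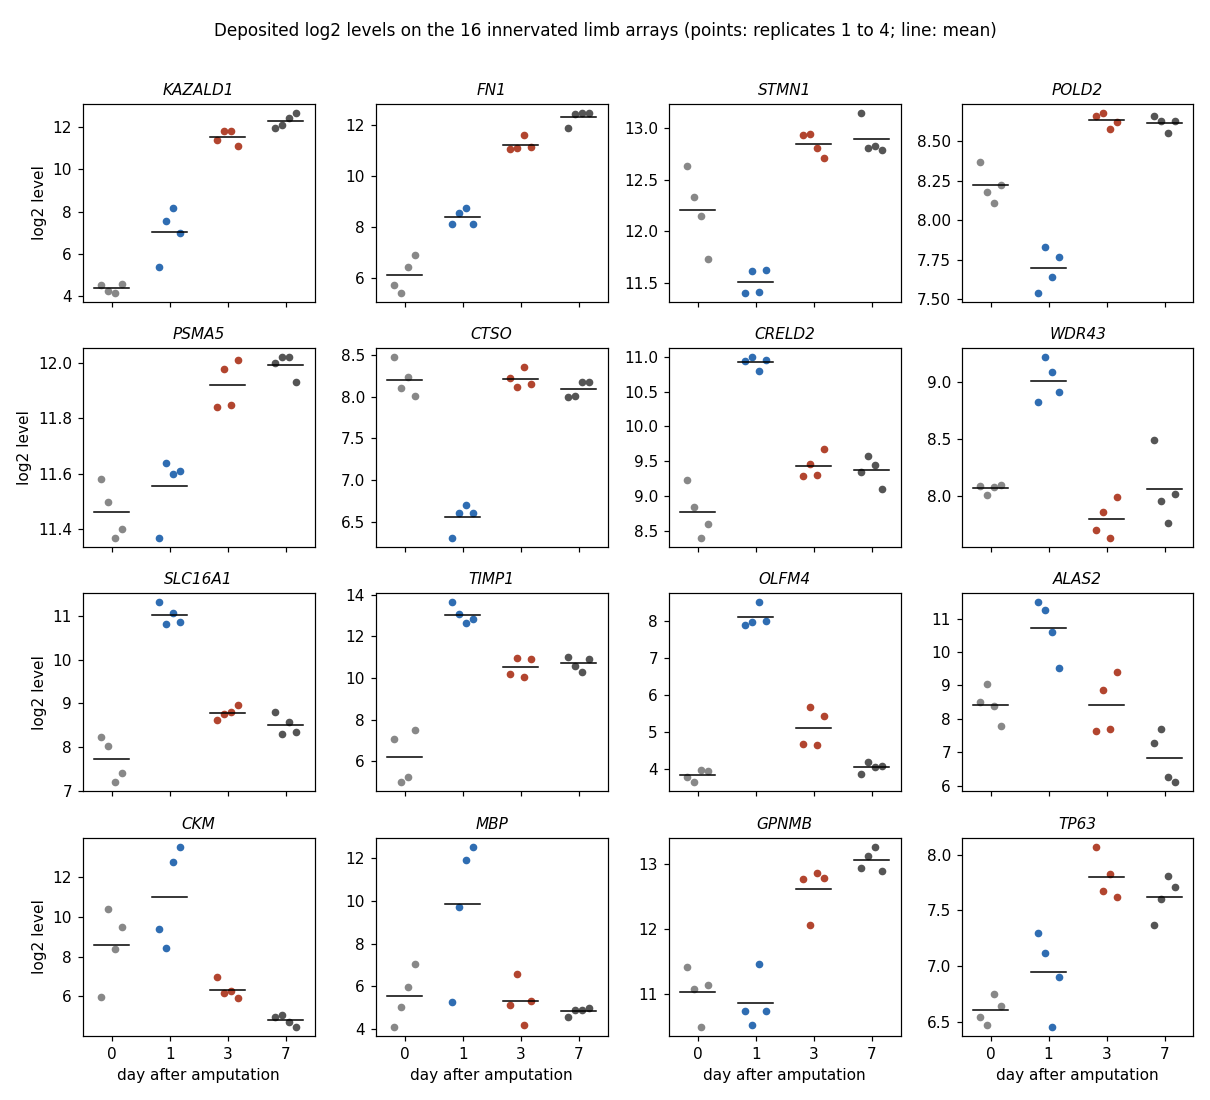
Deposited log2 levels of 16 genes on the 16 innervated limb arrays (points, replicates 1 to 4 from left to right, with the mean as a line) at days 0, 1, 3 and 7 after amputation, each gene with its own scale. KAZALD1 and FN1 climb over the 4 days, CTSO is lowest and CRELD2, SLC16A1 and OLFM4 are highest at day 1, and CKM and MBP are spread widely at day 1.

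The denervated limb gave the same comparison on 8 other arrays. There 15.7% of probe sets rose and 11.7% fell (27.3% in all). Of the 3157 probe sets that rose in the innervated limb 2331 (73.8%) also rose in the denervated limb, which is 74.3% of its own rises, and of the 2113 that fell 1194 (56.5%) also fell there, 51.0% of its falls. Calls in opposite directions were 4 and 3. The difference between the changes of the limbs passed for 37 probe sets that were higher (0.185%) and 10 that were lower (0.0499%) in the innervated limb, together 47 (0.235%) in 27 genes, with 1778 at an unadjusted p under 0.05. The number depended on single arrays and was 27 without day 1 replicate 3, 31 without day 3 replicate 2 and 85 without day 1 replicate 1.

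Among the genes with the largest such differences, GFPT2, UAP1 and LMO7 fell in the denervated limb. In the innervated limb the changes of GFPT2 and UAP1 did not pass, and LMO7 fell less. GFPT2, which starts hexosamine synthesis, stood at 6.99, 7.11, 7.20 and 7.25 at day 3, against 8.05, 6.44, 6.69 and 7.31 at day 1 in the innervated limb, a difference of 0.015 that did not pass (adjusted p = 0.984). On the denervated stump it averaged 4.74 ± 0.46 at day 3, against 7.53 ± 0.29 at day 1 (SD, n = 4), and the changes differed by 2.81 ± 0.53 (limma adjusted p = 0.00854). UAP1, which makes UDP-N-acetylglucosamine, averaged 9.03 ± 0.24 at day 3, against 10.3 ± 0.20 at day 1 of the denervated stump, and its change differed by 1.75 ± 0.31 (limma adjusted p = 0.00569). In the innervated limb the difference of UAP1 was 0.455, and it passed only with the fit limited to the arrays compared (limma adjusted p = 0.0422). LMO7, a protein of adherens junctions, fell in both limbs, by 0.68 in the innervated and by 1.98 in the denervated limb (difference of changes 1.31 ± 0.18, limma adjusted p = 0.000224). MALL, a membrane raft protein, differed by 2.06 ± 0.44 (limma adjusted p = 0.0241), which missed the threshold when day 3 replicate 2 or 4, or day 1 replicate 2 or 4, was left out (adjusted p = 0.0574 to 0.0735). OVOL2 rose by 1.56 in the innervated limb, its change in the denervated limb was 0.325 and did not pass, and the changes differed by 1.23 ± 0.23 (limma adjusted p = 0.00854). In the other direction, hexokinase 1 (HK1), the first enzyme of glycolysis, fell in the innervated limb (difference −0.475, adjusted p = 0.0163) and rose by 0.63 in the denervated limb, with a difference of changes of −1.10 ± 0.21 (limma adjusted p = 0.00979). The fall of HK1 missed the threshold when day 3 replicate 3 or day 1 replicate 1, 3 or 4 was left out (adjusted p = 0.0535 to 0.0710), and was −0.265 without day 1 replicates 3 and 4 (adjusted p = 0.321). KRIT1, a scaffold of endothelial junctions, rose by 0.36 in the innervated and by 1.28 in the denervated limb (difference of changes −0.92 ± 0.15, limma adjusted p = 0.00281). Without day 1 replicates 3 and 4 the differences of GFPT2, UAP1, MALL and HK1 did not pass (adjusted p = 0.0533 to 0.119). With only the arrays of the groups compared, those of MALL and HK1 did not pass either (limma adjusted p = 0.122 and 0.143).

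The flank wound, which heals without a limb stump, gave the comparison on a further 8 arrays, with 14.1% of probe sets up and 12.1% down (26.2% in all). Of the rises in the innervated limb 2034 (64.4%) were shared with the flank, 72.1% of the flank's rises, and of the falls 1079 (51.1%) were shared, 44.5% of the flank's falls. Calls in opposite directions were 25 and 11. The difference of changes passed for 270 probe sets higher (1.35%) and 142 lower (0.709%) in the innervated limb, together 412 (2.06%) in 203 genes. TGM1, the transglutaminase of the cornified envelope, averaged 7.83 ± 0.35 at day 3, against 10.3 ± 0.94 at day 1 in the flank (SD, n = 4). In the innervated limb it stood at 9.35, 9.72, 9.88 and 10.17 at day 3, against 10.05, 9.35, 9.31 and 9.58 at day 1, and the changes differed by 2.70 ± 0.49 (limma adjusted p = 0.00102). MYLK, the kinase of myosin light chains, stood at 8.44, 8.30, 8.45 and 8.16 at day 3, against 6.57, 6.50, 6.42 and 6.48 at day 1 in the innervated limb. In the flank it averaged 6.84 ± 0.43 at day 3, against 7.04 ± 0.48 at day 1, and the changes differed by 2.05 ± 0.25 (limma adjusted p = 1.73e-05). GFPT2 also fell in the flank, where it averaged 5.07 ± 0.30 at day 3, against 8.03 ± 0.79 at day 1 (difference of changes 2.97 ± 0.53, limma adjusted p = 0.000902).

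Erythrocyte genes were among the largest differences in the other direction. NFE2, a transcription factor of red cell and thrombocyte precursors, stood at 5.18, 5.75, 5.60 and 6.23 at day 3, against 9.62, 9.13, 8.49 and 7.14 at day 1 in the innervated limb. In the flank it averaged 7.24 ± 0.58 at day 3, against 6.58 ± 0.83 at day 1, and the changes differed by −3.57 ± 0.54 (limma adjusted p = 0.000167). The differences of changes of PRDX2, RHAG and ALAS2 were −3.52 ± 0.68, −3.14 ± 0.52 and −2.93 ± 0.62, and 6 of the 11 erythrocyte and thrombocyte genes passed. With only the arrays of the groups compared, that of ALAS2 did not pass (limma adjusted p = 0.0729). None of the 11 fell or rose in the flank, and in the denervated limb 6 fell. As the background for these list counts, of all 8639 genes 1674 rose and 1058 fell in the denervated limb. In the flank 1457 of the 8639 rose and 1139 fell. The 2 collagen-related genes DCN and P4HA1 fell in the innervated limb. In the flank P4HA1 rose by 0.87 and DCN had a change of 0.365 that did not pass (adjusted p = 0.0909), and the differences of changes were −1.21 for DCN and −1.74 for P4HA1. Skeletal muscle genes fell in 6 of 33 cases in the denervated limb and in 1 of 33 in the flank (medians −1.59 and −0.58). None of these 33 genes passed either test of the difference of changes. FHL1, which is not in that list, passed against the flank (difference of changes −3.515 ± 0.96, limma adjusted p = 0.0414). It stood at 8.03, 7.22, 11.01 and 10.81 on day 1 replicates 1 to 4, so it too was highest on replicates 3 and 4. Its dependence on the processing was not examined. The denervated arrays were also uneven in CKM, which averaged 8.115 ± 4.06 at day 3, against 11.5 ± 1.44 at day 1 (SD, n = 4). The CKM difference of changes between innervated limb and flank was −4.35 ± 1.69 and did not pass (limma adjusted p = 0.2). For mitosis and G2/M genes 23 of 71 rose in the denervated limb and 28 in the flank (medians 0.422 and 0.465). No gene of that list passed either test of the difference of changes. Over all 8639 genes 27 passed against the denervated limb and 203 against the flank. The lack of passes in the muscle and mitosis lists therefore says little about whether the wounds differ. For DNA replication 18 of 60 rose in the denervated limb and 36 in the flank (medians 0.161 and 0.736).

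**Figure D4:**
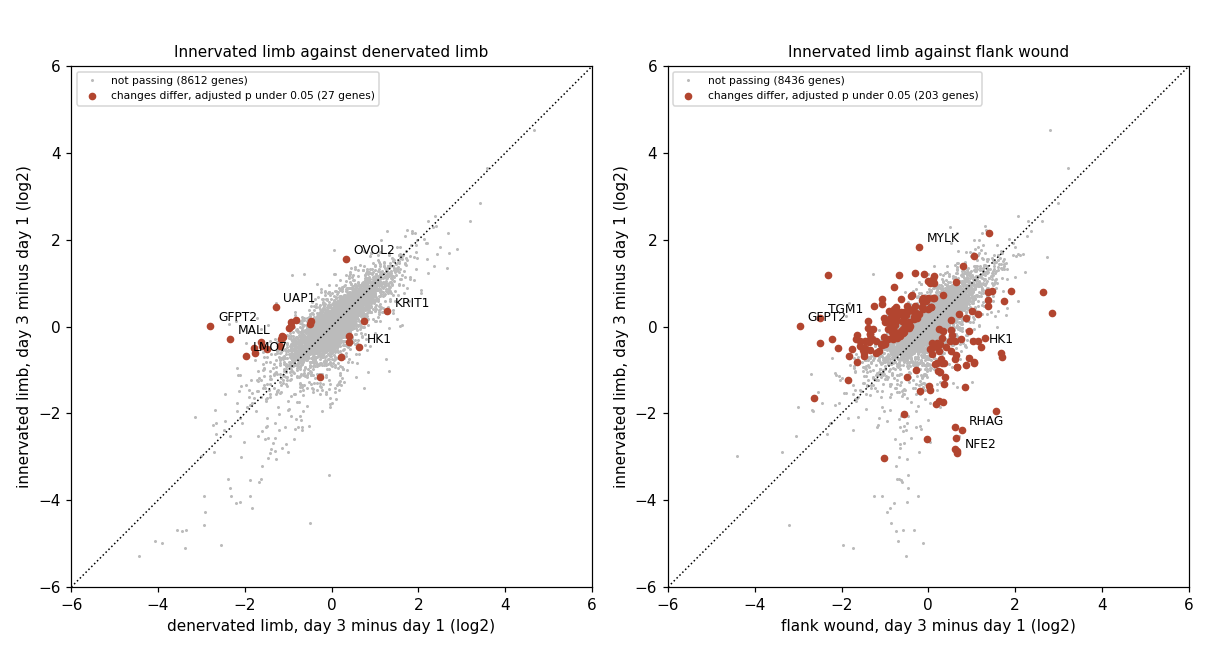
Change from day 1 to day 3 (log2) of each of 8639 genes in the innervated limb (vertical axis) against the denervated limb (left) and the flank wound (right). Red points are the 27 and 203 genes whose changes differed at an adjusted p under 0.05, grey points are the others, and the dotted line marks equal changes. GFPT2 lies far left in both panels, and NFE2 and RHAG lie low in the right panel.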

How the data were processed

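Epidermal RNA of 44 samples in 11 groups of 4 was hybridised as biotin-labelled cRNA to single-colour Affymetrix arrays. The log2 values analysed here were deposited by the authors, and RMA and limma appear in the submitters' processing notes with neither role nor version. Their scale and centring were read from the values, which ran from 2.41 to 15.04 with array medians of 5.61 to 5.72. Of 20080 probe sets 45 array controls were left out. Precision rests on 4 arrays a group, and read depth does not apply to arrays. The median standard error of day 3 against day 1 was 0.123, and that of CKM was 1.20.

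A mean per group was fitted over all 44 arrays with limma 3.58.1 in R 4.3.3 (lmFit and eBayes, 33 residual degrees of freedom, two-sided), with Benjamini-Hochberg adjustment over 20035 probe sets and a threshold of 0.05. The same fit gave the differences of changes between wounds. The platform annotation named 10951 probe sets and left 9084 unnamed. For 1740 genes with more than 1 probe set the one with the highest mean over the 44 arrays was used, and 25 genes had probe sets called in opposite directions.

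The members and the 44 gene lists were chosen with earlier results of these data known. Genes named are the 15 largest changes in each direction among those called with no overlap between the days, members among the 4 smallest adjusted p of a list, the 8 largest differences of changes in each direction, and others said to be picked after their values were seen. Same-numbered replicates of the days correlated at −0.16 to 0.04 in their deviations from the group means, against −0.21 to 0.24 for other pairs. No pairing by number was seen, but so few pairs cannot exclude one. On data simulated for this comparison over 20035 probe sets, 94% of changes of 1 and 40% to 44% of changes of 0.5 on the log2 scale were recovered. The simulation changed 50 probe sets per size and direction and gave all groups equal variance. In the data 26.3% of probe sets were called and the day 1 arrays were uneven, so these shares need not hold there. Alternatives covered the arrays fitted, a replicate block, variance trend, array weights, normalization, dim probe sets, a size threshold and each array left out.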

Additional observations from a re-analysis of the deposited data

Results flagged for a closer look

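In groups of 4 arrays, 1 value lay far from the other 3 by Dixon's criterion for 15 of the 292 groups examined (146 genes, days 3 and 1), and chance alone gives about 1 in 20 groups. At day 3 these were SIGLEC1 at 8.06 and GPNMB at 12.07 on replicate 2, SLC12A2 at 9.94 on replicate 4, ASPM at 6.69 and GABARAPL2 at 11.06 on replicate 3, and DHRS3 at 8.49 on replicate 1. At day 1 replicate 1 stood apart for BRWD3 at 4.94, P4HA1 at 11.51, PSMA5 at 11.37 and LMO7 at 12.16. Day 1 replicate 2 stood apart for PRPF3 at 8.92 and HK1 at 8.65. Day 1 replicate 3 stood apart for PAMR1 at 5.39 and LTBP3 at 8.54, and replicate 4 for ETV4 at 5.47.

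The change from day 1 to day 3 differed between wounds for several named genes, by limma's test of the difference of changes. Innervated minus denervated limb, the differences were 2.81 for GFPT2, 2.06 for MALL, 1.75 for UAP1, 1.31 for LMO7, 1.23 for OVOL2, −1.10 for HK1 and −0.92 for KRIT1. Innervated limb minus flank wound, they were 2.97 for GFPT2, 2.70 for TGM1, 2.05 for MYLK, 1.93 for MALL, 1.54 for ETV4, 1.20 for UAP1, 1.15 for LMO7, 0.74 for HELQ and 0.65 for LGMN. On the negative side they were −3.57 for NFE2, −3.52 for PRDX2, −3.14 for RHAG, −2.93 for ALAS2, −2.55 for MYH11, −2.09 for SPTB, −2.02 for CRYAB, −1.96 for MTHFD2, −1.74 for P4HA1, −1.70 for HK1, −1.21 for DCN and −0.65 for KRIT1. The flank differences of MYH11, CRYAB and HELQ lost their calls when any of several single arrays was left out, with adjusted p up to 0.100 for MYH11, 0.118 for CRYAB and 0.103 for HELQ, and that of MYH11 also with a replicate block (adjusted p = 0.0580). The flank difference of UAP1 was lost without day 3 replicate 1 or 4 or day 1 replicate 3 (adjusted p = 0.0533 to 0.0842). Without day 1 replicates 3 and 4 those of KRIT1 and LGMN were lost (adjusted p = 0.0719 and 0.0659). So were those of CRYAB, UAP1, HELQ and MYH11 (adjusted p = 0.202, 0.148, 0.123 and 0.0925). With only the arrays of the groups compared, those of LGMN, ALAS2, CRYAB and KRIT1 were lost (adjusted p = 0.126, 0.0729, 0.0688 and 0.0633).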

How the results depend on the processing

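None of the 174 results on named genes was counted as reversed under the alternatives run. A reversal was a change of sign with an adjusted p under 0.05 in the main or the alternative fit. Changes of sign in results that passed in neither fit were not counted. Without day 1 replicates 3 and 4 the list medians changed sign for the provisional wound matrix (0.168, against −0.12 with all arrays), the matrix proteases (0.00625, against −0.05) and cartilage and bone (−0.0125, against 0.03). Leaving out 1 array at a time gave 4402 to 5238 changed probe sets, 2734 to 3117 higher and 1647 to 2121 lower, with 3160 to 3482 calls shared with the denervated limb, 2804 to 3039 with the flank and 1128 to 1246 with day 7 against day 0. The differences of changes numbered 27 (without day 1 replicate 3) to 85 (without day 1 replicate 1) against the denervated limb, with 31 without day 3 replicate 2, and 300 to 521 against the flank. Fitting only the arrays of the groups compared gave 15 and 221, and leaving out day 1 replicates 3 and 4 gave 21 against the denervated limb. A 2-fold threshold left 977 probe sets (495 higher, 482 lower), 25 and 189 differences of changes, and 561, 433 and 185 shared calls. With a replicate block 5461 probe sets changed, 3247 higher and 2214 lower, and of 174 results on named genes 1 lost and 1 gained its call. Of the same 174, 30 lost their call without day 1 replicates 3 and 4, 11 lost and 1 gained it with only the arrays of the groups compared, and 2 to 6 lost it when 1 array was left out. With only those arrays 15 muscle genes, 2 vessel genes, 2 amino acid response genes, 2 oxidative phosphorylation genes and 8 collagen genes fell, and 1 chaperone of the cytosol and mitochondria rose. Of the causes of these shifts none was tested. With 4 arrays a group, differences of 0.5 were recovered less often than differences of 1 in simulated data.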
